A study of Rattus norvegicus with 10 samples.

Results

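The genes described here are those whose liver expression fell into 2 separated levels between individual rats. For every probe set that names a single gene, the 10 animals were sorted by their value, and the largest gap between neighbouring values was taken with at least 2 animals on each side. The 100 probe sets with the largest gap were selected on these values. They are 100 of 20826 single-symbol probe sets on the array and represent 93 genes. By the same rule, 42 probe sets were set aside beforehand (symbols starting with RT1-, and Bcl6, Cish, Onecut1, Egr1, Dbp, Cyp7a1, Nqo1 and Mx2), of which 16, from 13 genes, would otherwise have ranked among the 100. Because the gap chose the members, its size is a description and carries no test.

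The livers came from 10 male Sprague-Dawley rats, 5 control animals and 5 given a short-term exposure to wastewater effluent of bulk drug manufacturing plants. Each array stands for 1 animal, and the labels give neither dose, length of exposure nor age. RNA was hybridised to Affymetrix 3' expression arrays, on which a probe set is a group of short oligonucleotides that report 1 transcript, mostly near its 3' end. Values are log2 expression levels, so a difference of 1 is a doubling.

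Sprague-Dawley is an outbred stock, in which animals carry different alleles at many genes. A sequence difference can alter how much of a transcript a liver makes, or it can alter how well the transcript binds a probe, and both give animals of high and low value. Probe sets that read other stretches of the same transcript would share the first property and need not share the second. The stretches that the sets read were not compared here. Agreement or disagreement between sets therefore does not settle which applies. Liver genes can also differ between animals through feeding, time of day, handling at death and the mixture of blood and immune cells in the sample. In bulk tissue, fewer cells of a type and less RNA per cell cannot be told apart.

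The 10 arrays resembled one another, with medians from 5.43 to 5.49 and correlations across probe sets from 0.991 to 0.996. No arrays held identical values. All 7 hepatocyte markers measured, among them Alb and Apoa1, had mean levels from 13.54 to 14.99, and 0 of 5 skeletal muscle markers exceeded the median of all values, 5.46. Adipose markers exceeded it for 3 of 6, up to 9.41, and pancreatic acinar markers for 2 of 9, up to 9.81. The difference between 3' and 5' control probes of Gapdh and beta-actin, a sign of RNA degradation, was 0.73 in control animal 5 and lay from 0.49 to 0.63 in the other 9 animals.

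The gap ranged from 3.01 for Abhd3, an 8.03-fold step, to 0.54 for Fos, a 1.45-fold step, with a median of 0.66. The median gap of all single-symbol probe sets was 0.093. A gap above 1 was found for 13 members. The gap made up 13.1% to 84.7% of the member's whole range, with a median of 37.7%, and was 50% or more of it for 17 members. For the others, the spread within the 2 levels added up to more than the gap. The last members inside the limit were Cyp3a9, Ppp1r3b and Fos, all with a gap of 0.54, and the first outside it were Galnt1 at 0.54, Ehhadh at 0.53 and a further set of Prlr at 0.53.

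Most members were above the median of all values on both sides. That median is a mark of brightness and not a detection limit, so whether a low side was off was not tested. For 22 members the mean of the lower side was under the median and that of the upper side over it. A further 5 had both sides under it, and 73 had both over it. The smaller side held 2 animals for 46 members, 3 for 24 and 4 for 20, and 10 members split the rats 5 against 5. None of the 10 split them as control against exposed. The members followed 70 different splits of the animals, with a split and its reverse counted as different. Each rat stood on the smaller side for 21 to 31 members, most often exposed animal 4 with 31 and control animal 5 with 30.

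Abhd3, a hydrolase that acts on phospholipids, had the widest gap (probe set 1382137_at). It read 7.82, 8.08, 4.18, 3.58 and 3.85 in control animals 1 to 5 and 7.47, 7.53, 7.19, 3.81 and 7.39 in exposed animals 1 to 5. Control animals 3, 4 and 5 and exposed animal 4 formed the low level, and the other 6 animals were all at 7.19 or more. The low level was under the median of all values, so this member came closest to an on-off pattern. A second Abhd3 set, 1381773_at, did not separate the same animals. This set was dim, with a mean under the median of all values. It lay between 4.58 and 5.39 in all 10, with its higher side 0.31 above its lower side on average, against 3.72 for the member set.

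Krt10, a keratin of differentiating epithelium, had no other set (1373254_at, gap 1.81). Its values were 6.86, 4.28, 4.73, 4.75 and 6.97 in control animals 1 to 5 and 5.01, 7.11, 5.05, 4.38 and 4.76 in exposed animals 1 to 5. Control animals 1 and 5 and exposed animal 2 stood near 7, and the other 7 animals at 5.05 or less. Clca2, a gene of the chloride channel accessory family, was high in exposed animals 2 and 4, at 6.50 and 6.51, while the other 8 animals lay between 4.59 and 4.88. Its gap took up 84.7% of the range, the largest share among the members. Edil3, an extracellular matrix protein that binds integrins, read 5.21 and 4.83 in control animals 3 and 4 and 4.04 in exposed animal 4, against 2.72 to 2.94 in the other 7. Ly6al, of the Ly6 family of membrane-anchored proteins, read between 6.45 and 7.28 in control animals 1 and 3 and exposed animals 3 and 5, and between 4.72 and 5.33 in the other 6.

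**Figure D1:**
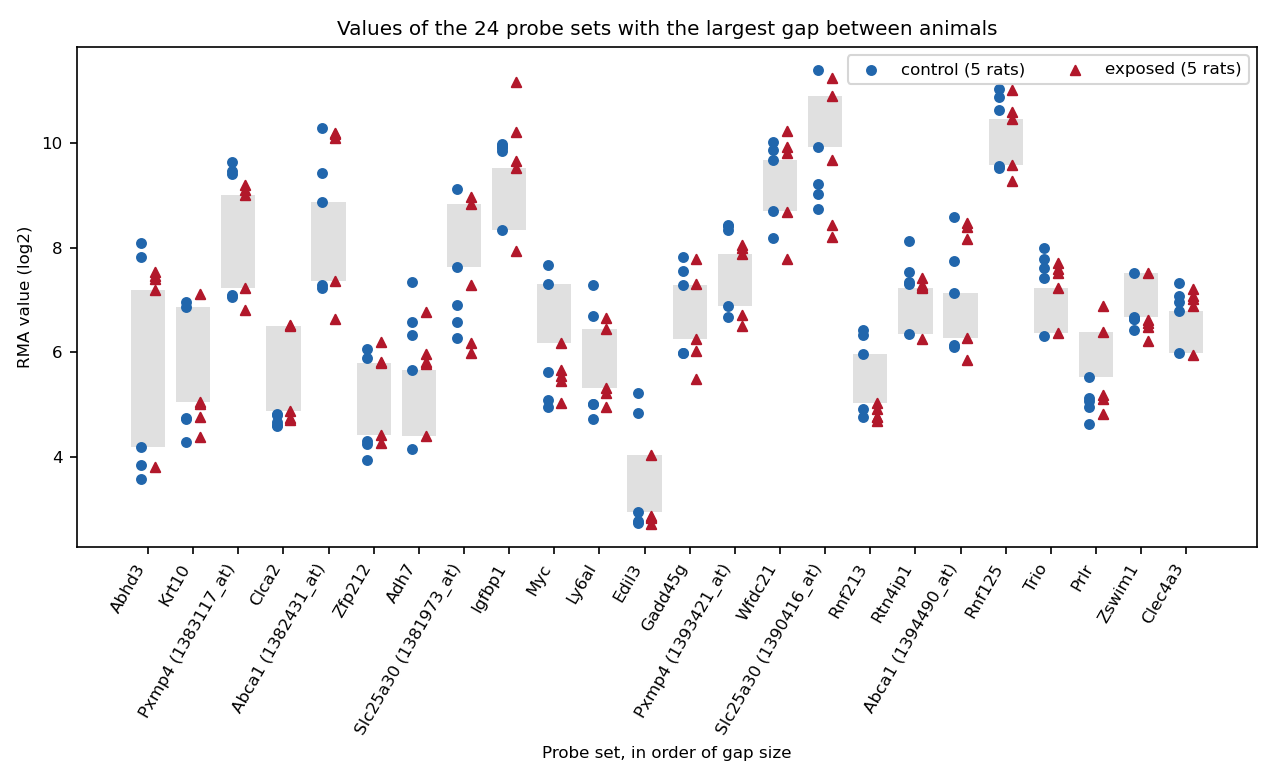
RMA values (log2) of the 24 probe sets with the largest gap, in order of gap size, with 1 point per rat (circles control, triangles exposed, 5 each) and the gap shaded grey. Abhd3 has the widest empty band, 3.01, and circles and triangles lie on both sides of the band for most of the sets shown.

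The comparison with other probe sets asked whether the 2 levels belonged to the transcript or to the one probe set. Of the 93 genes, 37 had at least 1 other single-symbol set and 56 had none, so that for those 56 the comparison cannot be made. For 17 of the 37 genes every other set separated the same animals in the same direction, meaning that all animals above the member's gap read higher than all animals below it. For 5 of these 17 the other sets were members themselves. For 4 genes some other sets did, and for 16 none did. Over the 50 pairs of a member and another set that was not itself a member, 19 (38%) separated the animals, from 32 genes in all. The same condition was met by 1.41% of all single-symbol sets over the same splits. Among other sets brighter than the median of all values 17 of 39 separated the animals, and among dimmer ones 2 of 11. Of the 31 pairs that did not separate them, 11 had a mean difference in the opposite direction.

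Genes with several members are counted through the rule itself, since each of their sets was chosen for its own gap. Pxmp4, a small membrane protein of peroxisomes, had both of its sets among the members. Set 1383117_at read 9.41, 7.10, 7.05, 9.48 and 9.64 in control animals 1 to 5 and 6.81, 9.20, 9.11, 7.22 and 9.0 in exposed animals 1 to 5, with a gap of 1.78. Set 1393421_at placed the same animals on each side with a gap of 1.00: control animals 2 and 3 and exposed animals 1 and 4 lay between 6.51 and 6.89, and the other 6 between 7.89 and 8.43. That no Pxmp4 value fell between the levels follows from the rule, which takes the levels as the 2 sides of the gap.

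Slc25a30, a carrier protein of the inner mitochondrial membrane, was high in control animal 5 and exposed animals 4 and 5 on both of its sets. Set 1381973_at read 6.58, 6.27, 6.90, 7.63 and 9.12 in control animals 1 to 5 and 6.17, 7.29, 5.99, 8.98 and 8.84 in exposed animals 1 to 5. Set 1390416_at gave 10.91 to 11.41 in the 3 high animals and 8.20 to 9.93 in the other 7. Control animal 4 was the highest of the lower level on both sets. Lgalsl, a galectin-like protein, was low in control animal 5 and exposed animals 4 and 5 on both sets, at 5.68 to 5.90 on 1376867_at and 7.57 to 7.71 on 1373515_at. Its gaps there were 0.81 and 0.56. Slc25a30 and Lgalsl thus divided the same 3 rats from the other 7, in opposite directions. Rcan2, an inhibitor of the phosphatase calcineurin, was high in control animals 1 and 2 on both sets, at 6.79 and 6.80 on 1374235_at and 7.29 and 7.10 on 1389066_at, against at most 6.15 and 6.49 in the other animals.

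Igf2bp3, an RNA-binding protein best known from fetal tissue, was the only gene with 3 member sets. Set 1377824_a_at read 6.46, 6.04, 5.24, 5.11 and 4.85 in control animals 1 to 5 and 6.28, 5.17, 6.10, 4.53 and 6.12 in exposed animals 1 to 5. Control animals 1 and 2 and exposed animals 1, 3 and 5 were high on this set and on 1393202_a_at and 1390860_at, with gaps of 0.80, 0.73 and 0.67. The differences between the side means were 1.22, 1.04 and 1.01. The 3 sets differ in brightness, and each one gave the same 5 against 5 division.

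Further genes had other sets that were not members but followed the member. Lox, the enzyme that cross-links collagen, read 8.16, 10.42, 8.82, 10.27 and 9.93 in control animals 1 to 5 and 10.57, 9.60, 9.03, 8.94 and 8.68 in exposed animals 1 to 5 on its member set 1368171_at. Its other set, 1368172_a_at, placed the same 5 animals higher, with a margin of 0.45 and a mean difference of 1.37, against 1.43 on the member set. Prlr, the prolactin receptor, was high in exposed animals 3 and 5 at 6.38 and 6.88, against at most 5.53 in the other 8. Both other Prlr sets put these 2 animals on top, with margins of 0.52 and 0.36. The 1 with the margin of 0.36 ranked just outside the members.

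Dusp1, a phosphatase that shuts off stress kinases, was high in control animal 3 and exposed animals 2 and 4 on the member set, at 7.91, 8.19 and 8.18 against at most 7.23. The brighter Dusp1 set 1368146_at gave 10.36, 10.76 and 10.77 in these animals and at most 9.88 in the others. Trib3, a pseudokinase induced by cell stress, has other sets that all carry a suffix for shared probes. It was highest in control animal 5 and exposed animal 4 on the member set, at 7.46 and 7.36, and on both other sets, with margins of 0.15 and 0.47. Rab30, a small GTPase of the Golgi, was high in the same pair, at 8.63 and 8.35 against at most 7.80, and its other set kept the pair on top by 0.23. Prcp, a lysosomal carboxypeptidase, was low in control animal 1 and exposed animals 1 and 2 on both of its sets, with a margin of 0.44 on the set that was not a member.

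Gfra1, a receptor subunit for glial-derived neurotrophic factor, was low in exposed animals 3 and 5, at 5.74 and 6.49 against at least 7.22, and the other set gave 6.40 and 7.23 against at least 7.38. Kcnj15, a potassium channel, was highest in exposed animals 3 and 5 at 8.44 and 6.40, with the other 8 between 4.11 and 5.83. Its other set separated the pair by only 0.01 and lay under the median of all values. Spink1, a trypsin inhibitor, was low in control animals 2 and 4 and exposed animal 5 on 3 of 3 sets, with margins of 0.16 and 0.18 on the sets that were not members. Those 2 sets carry suffixes for shared probes, and Spink1 has a close relative, Spink1l, as its neighbour. Rnf213, a large ubiquitin ligase, was high in control animals 1, 2 and 4 at 5.97 to 6.43, against at most 5.03, and its second set separated them by 0.09. Cfp and Ms4a6a also had other sets that followed and are described with the macrophage markers. Where the other sets separated the animals, 17 of 19 showed more than 50% of the member's mean difference.

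For 4 genes the other sets were divided among themselves. Abca1, the pump that loads cholesterol onto nascent high-density lipoprotein, had 2 member sets and 2 others. Set 1382431_at read 8.88, 9.44, 7.24, 7.28 and 10.29 in control animals 1 to 5 and 10.20, 10.10, 7.37, 6.64 and 10.17 in exposed animals 1 to 5, and 1394490_at placed the same 6 animals higher, at 7.14 to 8.58 against 5.86 to 6.27. Set 1383355_at gave 8.84, 9.18, 9.58, 9.45 and 9.04 in control animals 1 to 5 and 8.97, 8.88, 9.50, 9.44 and 9.03 in exposed animals 1 to 5, with the mean of the 6 animals 0.51 below that of the other 4. The 4th set, 1384381_at, differed in the same direction by -0.38. The member sets of Abca1 thus ordered the rats one way and the other pair, on average, the opposite way.

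Dusp6, a phosphatase of ERK kinases, was followed by set 1387024_at with a margin of 0.43 and not by 1382778_at, whose values ran from 6.06 to 8.87 in another order. Anxa3, an annexin of phagocytes, was followed by 2 of 3 other sets, with margins of 0.30 and 0.32, and not by the dim 1380751_at. The Anxa3 set with the margin of 0.32 carries a suffix for shared probes. Pnpla3, a lipid droplet acylhydrolase that responds to feeding, was followed by 1380013_at with a margin of 0.29. On 1380643_at the sides overlapped by 0.03, although their means differed by 0.54 in the same direction.

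Among the 16 genes that no other set followed, the size of the disagreement varied. Zfp212, a zinc finger protein, read 6.06, 5.89, 3.94, 4.25 and 4.30 in control animals 1 to 5 and 5.80, 4.26, 5.82, 4.41 and 6.20 in exposed animals 1 to 5 on its member set 1380094_a_at. Its other set was brighter, between 7.21 and 7.85 in all animals, with a mean difference of -0.28. Zbtb20, a repressor active in hepatocytes, was high in exposed animals 1 and 2 on its member set, at 7.38 and 7.45 against at most 6.64. All 5 of its other sets had a mean difference in the opposite direction, from -0.05 to -0.69.

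Rtn4ip1, a mitochondrial oxidoreductase, was low in control animal 5 and exposed animal 2, at 6.35 and 6.25 against at least 7.22. Its other set was near background, between 3.46 and 3.90. Trio, a guanine exchange factor, was low in control animal 3 and exposed animal 4, at 6.31 and 6.37 against at least 7.23, while its other set was between 6.88 and 7.33. Retreg1, a receptor for autophagy of the endoplasmic reticulum, was low in control animals 1 and 2 and exposed animal 1, with a mean difference of 0.27 on its other set. Rdx, which ties membranes to actin, was high in control animals 2, 3 and 4 and exposed animal 4, at 8.37 to 8.72 against at most 7.71. Its 4 other sets showed mean differences from -0.07 to 0.07 between these animals. Aoc3, an amine oxidase, showed 0.11 on its other set, which was dim. Ppp1r3b, the liver's glycogen-targeting subunit of protein phosphatase 1, had an overlap of 0.16 on the second set but a mean difference of 0.76 in the same direction. Fos was dim on its member set, from 2.81 to 4.30, and its brighter set, between 5.27 and 5.70, showed 0.06. The probe sequences were not used here, and whether a base difference lies under any probe was not tested.

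**Figure D2:**
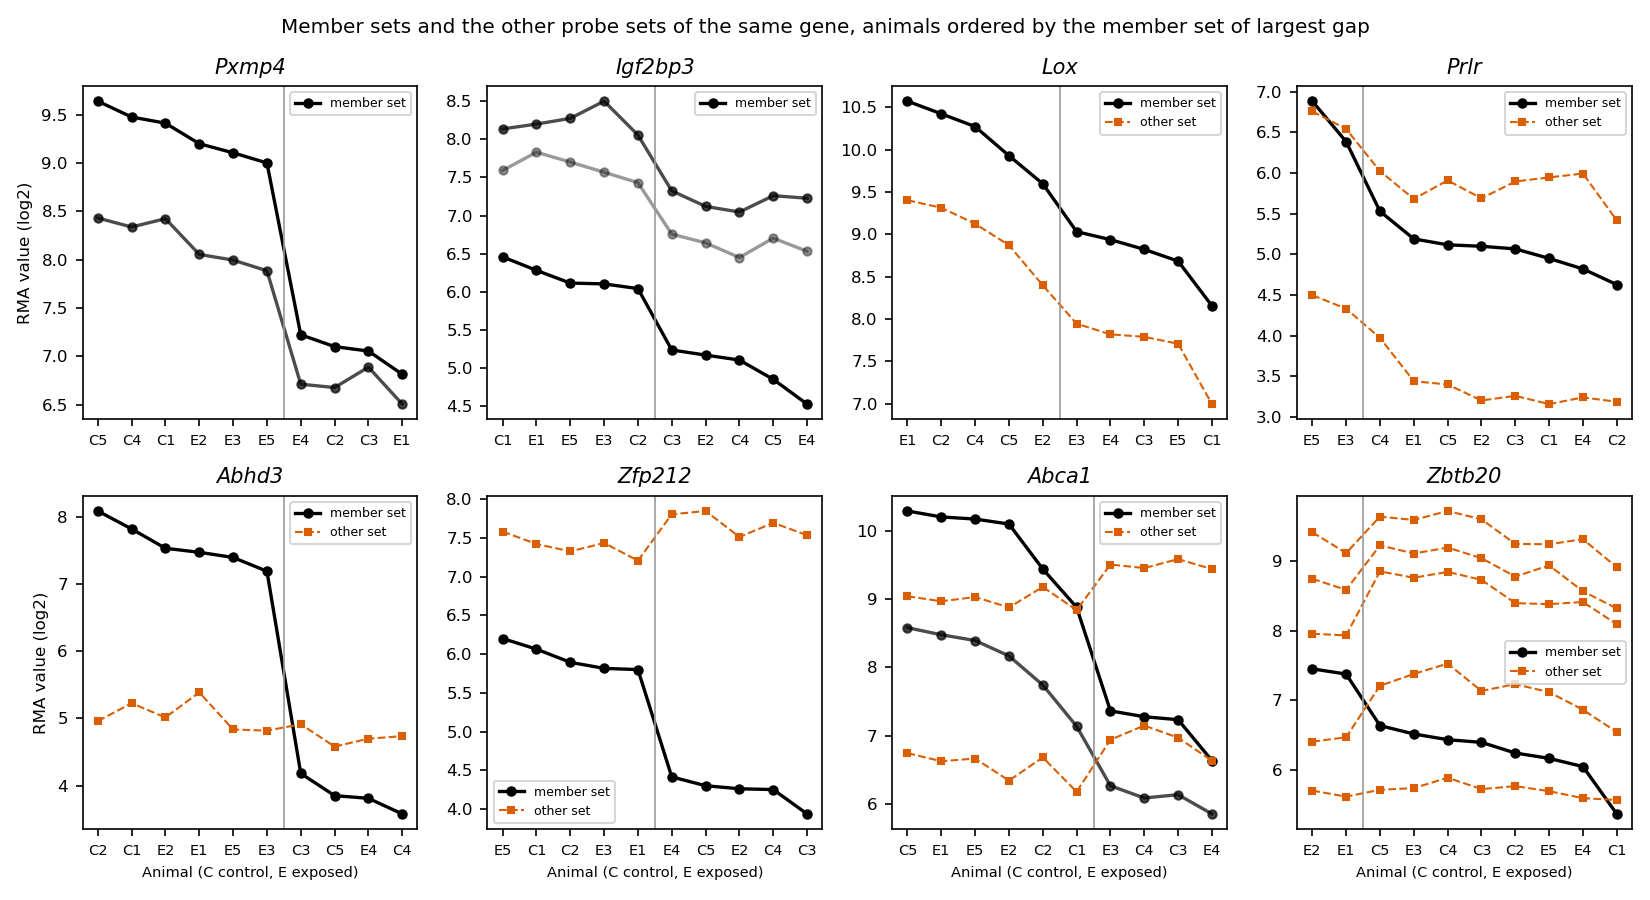
RMA values (log2) of member sets (black, solid) and other sets of the same gene that were not members (orange, dashed) for 8 genes, with the rats (C control, E exposed) ordered by the member set of largest gap and a vertical line at that gap. For Pxmp4 and Igf2bp3 all sets are members and step down at the line, for Lox and Prlr the other sets follow, and for Abhd3, Zfp212, Abca1 and Zbtb20 they do not.

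The member sets of Zfp212 and Igf2bp3 divided the rats in the same way, with control animals 1 and 2 and exposed animals 1, 3 and 5 high. Both genes lie on chromosome 4, 31 genes apart in the gene order of the rat assembly GRCr8. Zfp212 and Igf2bp3 were the closest pair of different member genes on 1 chromosome that shared a split in the same direction. Within 50 genes of Igf2bp3, leaving out the Zfp212 set that prompted the window, 3 of 88 probe sets of other genes had all 5 of these animals above the other 5. Over all single-symbol sets but those of Igf2bp3, the share was 0.442%. The window was chosen after these values were seen. The sets were 1 each of Gimap4, a GTPase of lymphocytes, with a margin of 0.27, Hnrnpa2b1, an RNA-binding protein of splicing, with 0.11, and Repin1, a zinc finger protein, with 0.016. The other 3 Hnrnpa2b1 sets and the other 2 Repin1 sets did not separate the animals, nor did the second Zfp212 set. Gimap4 read 4.96, 4.93, 4.09, 3.61 and 3.76 in control animals 1 to 5 and 4.91, 4.36, 4.63, 4.11 and 5.15 in exposed animals 1 to 5. Its 5 high animals lay between 4.63 and 5.15, below the median of all values, and the others at 4.36 or less.

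**Figure D3:**
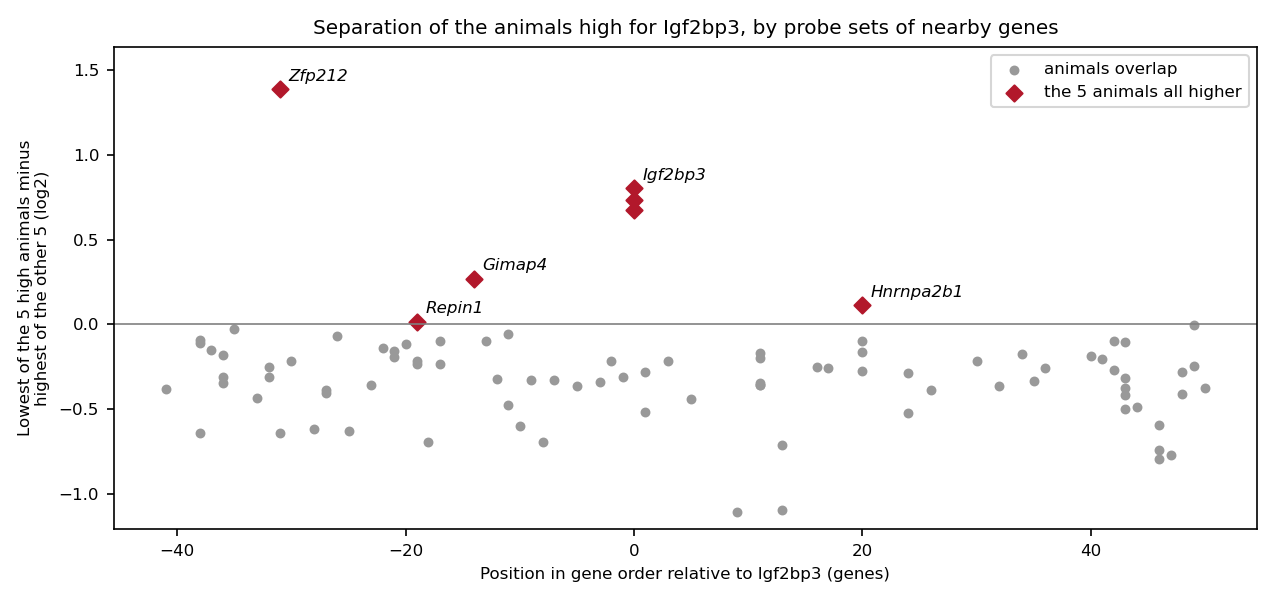
Separation of the 5 rats that are high for Igf2bp3, as their lowest value minus the highest value of the other 5 (log2), for each probe set within 50 genes of Igf2bp3 by position in gene order. The 3 Igf2bp3 sets and 1 set each of Zfp212, Gimap4, Hnrnpa2b1 and Repin1 are above 0, and the other sets, further sets of Zfp212, Hnrnpa2b1 and Repin1 included, lie below it.

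The promoters of this pair are shown because member sets of the genes divide the rats alike and the genes lie close together. The brighter Zfp212 set does not divide the rats in this way. Both are RefSeq sequences of GRCr8, from 250 bases before to 50 after the annotated start, written 5′ to 3′ on the gene's strand. Igf2bp3 is at chr4:79525681-79525980 on the minus strand and Zfp212 at chr4:78254359-78254658 on the plus strand. Capitals mark CACGTG, the E-box bound by factors such as MYC and the clock protein CLOCK, which reads the same on both strands.
Igf2bp3: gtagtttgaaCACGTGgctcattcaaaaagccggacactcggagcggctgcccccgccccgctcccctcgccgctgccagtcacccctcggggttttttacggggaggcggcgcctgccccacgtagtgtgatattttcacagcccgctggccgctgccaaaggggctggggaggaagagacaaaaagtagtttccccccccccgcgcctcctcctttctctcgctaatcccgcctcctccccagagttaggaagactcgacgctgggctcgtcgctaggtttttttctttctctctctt
Zfp212: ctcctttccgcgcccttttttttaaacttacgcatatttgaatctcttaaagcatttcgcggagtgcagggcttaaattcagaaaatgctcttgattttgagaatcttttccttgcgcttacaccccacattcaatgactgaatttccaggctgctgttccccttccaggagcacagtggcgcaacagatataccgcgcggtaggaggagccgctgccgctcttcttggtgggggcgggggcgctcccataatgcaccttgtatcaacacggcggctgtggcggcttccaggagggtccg
The Igf2bp3 promoter holds 1 E-box, 240 bases before the start, and these letters do not occur in the Zfp212 window. Of 33469 promoters of this length 6.42% hold an E-box. Counted by gene, where any of a gene's listed promoters may match, it is 7.08% of 27457 genes and 10 of the 73 member genes with a listed promoter. A match is a description of the letters only. The sequences are those of the reference rat, and the alleles of the animals studied were not read here.

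Neighbouring genes were then compared for all members. Of 1786 pairs of a member and a probe set of a gene within 10 genes of it, 49 (2.74%) separated the member's animals in the same direction. The share over all single-symbol sets and the same splits was 1.66%. Only 4 of the 49 did so with a margin over 0.2, and most margins were small.

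Adh7, an alcohol dehydrogenase that also oxidises retinol, was low in control animal 2 and exposed animal 5 (1369072_at, gap 1.27). It read 5.67, 4.14, 7.35, 6.32 and 6.59 in control animals 1 to 5 and 6.77, 5.96, 5.77, 5.81 and 4.40 in exposed animals 1 to 5. Adh1c, the next gene on chromosome 2 and the main liver alcohol dehydrogenase, was lowest in the same 2 rats on both of its sets, at 8.15 and 8.74 against at least 9.01 on 1378260_at, and at 12.94 and 13.45 against at least 13.46 on 1368021_at. Adh6a, 2 genes from Adh7, followed by 0.08 at a level under the median. These are members of 1 gene family with related sequences, and whether a probe set reads more than 1 of them was not tested. Lgalsl had Slc1a4, a neutral amino acid transporter 4 genes away, lowest in the same 3 rats, at 5.75, 5.76 and 5.35 against at least 6.14. Mt2A and its neighbour Mt1, both metal-binding metallothioneins, were low in control animals 1 and 2 and exposed animal 1, Mt2A at 7.80 to 8.10 against at least 8.78, and Mt1 by a margin of only 0.02. Spink1l followed Spink1 by 0.11.

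Among all pairs of members from different genes, 35 of 4942 (0.708%) shared a split in the same direction, and 15 such splits were shared by more than 1 gene. These counts take a split and its reverse as different. Exposed animals 3 and 5 were low for Gfra1, Nim1k and Cyp3a9 and high for Prlr and Kcnj15. Over both directions, that division held more genes than any split in 1 direction. Within 1 direction, the most genes on 1 split were 4, for 2 splits, that of Adh7 and a second, low in control animal 5 and exposed animal 3. The second held Clec4a3, a C-type lectin of myeloid cells, Cfp, the complement regulator properdin, Itgb2, the beta chain of leukocyte integrins, and Sparcl1, a matrix protein. Clec4a3 read 6.97, 7.32, 7.08, 6.80 and 5.98 in control animals 1 to 5 and 7.20, 7.08, 5.95, 7.02 and 6.89 in exposed animals 1 to 5, and both low animals were at 5.98 or less where the other 8 were at 6.80 or more. Cfp was 7.02 and 7.23 in these rats against at least 7.87, Itgb2 7.15 and 7.33 against at least 7.88, and Sparcl1 6.12 and 6.39 against at least 7.11. The second Cfp set, 1379019_at, followed with a margin of 0.32.

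A related split added control animal 4 to the low side. It held Ms4a6a, a membrane protein of myeloid cells, Anxa3 and Siglec5, a sialic acid-binding receptor of myeloid cells. Siglec5, singled out after its values were seen, was 3.12 in control animal 4, 5.00 in control animal 5 and 4.85 in exposed animal 3, against at least 5.69. Ms4a6a was 6.71, 6.45 and 6.61 in these 3 rats against at least 7.26, and Anxa3 8.79, 8.36 and 8.54 against at least 9.37.

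The Kupffer cell and macrophage markers moved with these members. The list's mean level, relative to the mean of the 10 animals, was -0.88 in control animal 5, -0.54 in exposed animal 3 and -0.34 in control animal 4, and between 0.06 and 0.45 in the other 7. All 7 markers measured, none of them a member, were lower in these 3 rats than in every other rat. Clec4f, the marker of rat and mouse Kupffer cells, was 9.79 in control animal 5, 10.11 in exposed animal 3 and 10.50 in control animal 4, against at least 10.74. Cd163, a scavenger receptor 11 genes from Clec4a3, was 6.39, 6.46 and 6.67 in the same order, against at least 7.05. Lymphocyte and plasma cell markers other than the member Jchain were at -0.34, -0.32 and -0.27 in these 3 rats and between 0.04 and 0.24 in the others. The mean level of the neutrophil markers was also lowest in them, at -0.12, -0.32 and -0.087, against at least -0.0091 in the others. Of the 4 neutrophil markers, 3 were lower on average in these 3 rats and only 1 separated them from the others. The lectins Clec4a and Clec4a1, neighbours of Clec4a3, and Ms4a6bl1, a neighbour of Ms4a6a, divided the rats as their neighbour did, with margins of 0.44, 0.16 and 0.31. Control animal 5 was also the animal with the largest 3' to 5' difference, 0.73, while exposed animal 3 had 0.58 and control animal 4 had 0.63. The part of cell content or RNA quality in these gaps was not tested.

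Red cell genes formed a second group. Slc4a1, the anion exchanger of the red cell membrane, and Ube2o, a ubiquitin ligase of maturing red cells, were both high in control animal 5 and exposed animal 1. Slc4a1 was 7.25 and 6.94 in these 2 rats, and exposed animal 4 came next at 6.34. Ube2o was 8.06 and 7.83 against at most 7.22. Hemgn, a nuclear protein of erythroid cells, was high in these 2 rats and exposed animal 4, at 6.08, 6.04 and 5.93 against at most 5.37. Ahsp, the chaperone of alpha globin, was high in exposed animals 1 and 4, at 7.74 and 7.45 against at most 6.82. Ube2o and Ahsp were singled out after their values were seen. Of the erythroid list, 2 of 6 probe sets were members, Slc4a1 and Hemgn, beside 100 of 20784 over all sets open to the rule. The 3 erythroid markers that were not members, Hbb, Alas2 and Epb42, had mean levels of 0.32 in control animal 5, 0.34 in exposed animal 1 and 0.38 in exposed animal 4, and at most 0.044 in the other 7. Alas2, the first enzyme of heme synthesis in red cells, was 9.56, 9.55 and 9.22 in the 3 rats and at most 8.93 in the others. Of the 5 erythroid markers, Slc4a1 and Hemgn included, 5 were higher on average in these 3 rats and 4 separated them from the others. These 3 rats are the high side of Hemgn itself, so its place in both counts was fixed by the rule. For control animal 5 and exposed animal 1 alone, 4 of the 5 were higher and 3 separated the pair. That pair is the high side of Slc4a1, whose place in these counts was fixed in the same way. The second Slc4a1 set did not separate the 2 animals from the rest, with an overlap of 0.06. Rsad2, an antiviral protein induced by interferon, had the same 2 animals high, at 9.15 and 9.21 against at most 8.49.

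**Figure D4:**
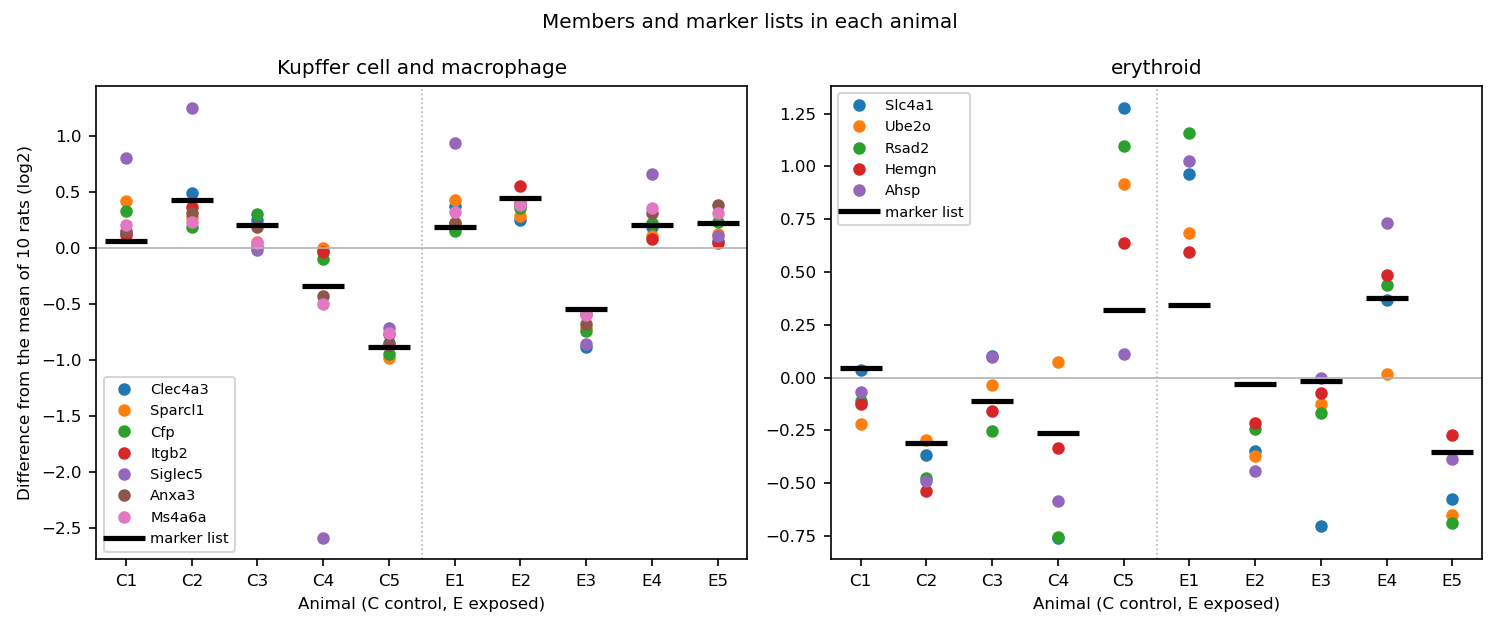
Difference of each rat from the mean of the 10 rats (log2) for 7 members and the mean of 7 Kupffer cell and macrophage markers (left), and for 5 members and the mean of 3 erythroid markers that are not members (right), with black bars for the marker means. The black bars are lowest at control animal 5 and exposed animal 3 on the left. On the right they are highest at control animal 5 and exposed animals 1 and 4. Siglec5 is lowest in control animal 4, where its level before the mean was taken off was 3.12. Before that step, Ube2o was 7.22 in control animal 4 and 7.17 in exposed animal 4.

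Jchain, the joining chain of secreted antibodies made by plasma cells, was the lymphoid marker among the members. It was high in control animals 2 and 4 and exposed animal 2, at 7.26, 7.32 and 8.15 against at most 6.66. A second set overlapped by 0.22 with a mean difference of 0.32 in the same direction. Control animal 4, which was high for Jchain, was among the low animals for the other lymphocyte markers.

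Immediate early genes, which respond within minutes to handling and signals, gave 3 members among 21 probe sets open to the rule, Myc, Dusp1 and Fos. Over all sets open to the rule, 100 of 20784 were members. The Fos member set was dim, and its brighter set did not separate the same animals. Myc, a transcription factor of growth, read 7.67, 5.63, 7.31, 5.10 and 4.96 in control animals 1 to 5 and 5.45, 6.17, 5.03, 5.66 and 5.54 in exposed animals 1 to 5. Control animals 1 and 3 stood at 7.67 and 7.31, and exposed animal 2 followed at 6.17. Trib1, a pseudokinase gene 8 genes from Myc, was also highest in these 2 rats, at 7.44 and 7.37, with exposed animal 2 next at 7.25. The list as a whole ranged from a mean level of -0.43 in control animal 4 to 0.38 in control animal 3.

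Genes of fasting and feeding gave 4 members among 33 sets, Igfbp1, Fgf21, Angptl4 and Pnpla3, beside 100 of 20784 over all sets open to the rule. Igfbp1, a secreted binding protein that insulin represses, read 9.94, 9.91, 9.99, 8.35 and 9.85 in control animals 1 to 5 and 11.18, 9.66, 10.21, 9.53 and 7.95 in exposed animals 1 to 5. Control animal 4 and exposed animal 5 were low. Fgf21, a hormone of the fasting response, was high in control animal 4 and exposed animal 4, at 7.88 and 7.90 against at most 7.06. Angptl4, an inhibitor of lipoprotein lipase, was low in control animal 2 and exposed animal 5, at 9.37 and 9.19 against at least 9.99. It shared that split with Adh7, with Rgs16, a regulator of G-protein signalling at 5.79 and 5.98 against at least 6.69, and with Inmt, a methyltransferase at 6.61 and 6.47 against at least 7.21. The 4 members of the feeding list thus followed 4 different splits, and the mean level of the whole list stayed between -0.10 and 0.16.

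Of the core clock list, 1 of 28 sets was a member, beside 100 of 20784 over all sets open to the rule. Bhlhe40, a repressor in the circadian loop, was highest in exposed animals 4 and 5, at 8.77 and 9.06 against at most 8.16. Bmal1, the activator that pairs with CLOCK and no member, was lowest in these 2 rats, at 6.68 and 6.07 against at least 6.83. Nfe2, a transcription factor of blood cells had the same 2 animals on top at 6.75 and 8.08. Bmal1 and Nfe2 were singled out after their values were seen. Trib3 was the member from 15 sets of the unfolded protein response list and Mt2A the one from 17 sets of the acute phase list. Cyp3a9, a rat cytochrome P450 of steroid and drug metabolism, was the member among the 65 of 66 sets of that family open to the rule, which had set Cyp7a1 aside, and was low in exposed animals 3 and 5, at 7.95 and 7.41 against at least 8.49. Lists of growth hormone, sterol and NRF2 target genes, glucuronosyltransferases, glutathione S-transferases and sulfotransferases gave 0 members. The rule had set aside part of these lists beforehand: 17 of 22 growth hormone sets, 13 of 14 sterol sets and 13 of 14 NRF2 sets were open to it, so the 0 is partly fixed by the rule.

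The promoters of Bhlhe40 and Dusp1 are printed as those of 2 regulated genes whose elements lie in the window, again from RefSeq GRCr8 over the same 300 bases. Bhlhe40 is at chr4:143174200-143174499 on the plus strand, with the E-box in capitals 220 bases before the start. Dusp1 is at chr10:17184603-17184902 on the plus strand. Capitals there mark TGACGTCA, the cyclic AMP response element, which reads the same on both strands, 124 bases before the start. The Dusp1 window also holds an E-box, which follows that element and is left in lower case.
Bhlhe40: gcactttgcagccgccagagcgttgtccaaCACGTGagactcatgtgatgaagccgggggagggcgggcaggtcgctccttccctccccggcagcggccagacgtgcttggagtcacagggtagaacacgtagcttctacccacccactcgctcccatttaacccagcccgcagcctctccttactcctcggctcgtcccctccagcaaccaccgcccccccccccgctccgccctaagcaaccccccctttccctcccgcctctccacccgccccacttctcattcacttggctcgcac
Dusp1: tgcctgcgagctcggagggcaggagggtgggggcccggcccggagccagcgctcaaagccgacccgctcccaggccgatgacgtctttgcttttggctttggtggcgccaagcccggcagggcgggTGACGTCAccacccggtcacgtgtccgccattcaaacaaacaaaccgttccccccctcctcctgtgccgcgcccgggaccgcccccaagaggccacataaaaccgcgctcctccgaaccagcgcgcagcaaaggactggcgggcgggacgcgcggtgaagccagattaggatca
The cyclic AMP response element occurs in 1.83% of all promoters. Counted by gene, it is 2.00% of all genes and 4 of the 73 member genes, Dusp1, Pnpla3, Retreg1 and Slc25a25. These 4 genes did not share a split as a group.

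The remaining members, singled out after their values were seen, have other roles in liver. Transcription factors were Foxa2, a pioneer factor of hepatocytes, Hhex and Hes1, which act in liver development, and Nr0b2, the bile acid-induced repressor. Foxa2 was low in control animals 2 and 4 and exposed animals 1 and 3, at 8.31 to 8.63 against at least 9.38. Hhex was highest in control animal 3 and exposed animal 2, at 11.40 and 11.47 against at most 10.79. Nr0b2 was high in control animal 2 and exposed animals 1, 3 and 4, at 9.24 to 9.38, against at most 8.59.

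Stress and growth-arrest genes included Gadd45a, Gadd45g and Ddit4. Gadd45g was low in control animals 4 and 5 and exposed animals 3, 4 and 5, at 5.49 to 6.26 against at least 7.28. Gadd45a was high in control animals 1 and 3 and exposed animal 2, at 8.77 to 9.09 against at most 8.10. Secreted and matrix proteins included Serpina7, the carrier of thyroid hormone, the small proteoglycan Lum, and Wfdc21. Serpina7 was low in control animals 2, 4 and 5 and exposed animal 2, at 5.85 to 6.68 against at least 7.38. Aldh1a1, a retinal dehydrogenase, was high in control animals 1 and 5, at 10.26 and 9.95 against at most 9.22. Rnf125, a ubiquitin ligase, was low in control animals 4 and 5 and exposed animals 4 and 5, at 9.27 to 9.59 against at least 10.46.

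Other members with a small high side included Mme, the peptidase neprilysin, at 5.48 and 5.49 in control animal 5 and exposed animal 2 against at most 4.74. Cdh17, a cadherin of gut and liver, was 10.67 and 10.65 in control animal 2 and exposed animal 2 against at most 9.96. Ltb, a cytokine of lymphoid tissue, divided the rats 5 against 5, with control animals 1, 4 and 5 and exposed animals 2 and 4 at 6.63 to 7.65 and the others at 5.93 or less. Cib2 was high in control animal 3 and exposed animal 1, at 7.74 and 7.90 against at most 7.0. Wfdc21, Pilra, Mmd2, Nim1k, Lum, Efemp1, Ddit4, Abcb9, Rgs3, Zfp446, Znf750, Stau2, Ston2, Tsku, Hes1, Mpzl2, Golt1a, Zswim1, Fam111a, Mrpl50, Slc25a25, Pdzrn3, Lrmda and Eva1a complete the set, with gaps from 0.54 to 0.99.

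The comparison of exposed with control animals asked whether the effluent shifted these genes, which the rule had not used. With limma across all 31042 probe sets, 0 members passed an adjusted p of 0.05, and 0% of all probe sets did. The smallest adjusted p was 0.879, for members and for all sets. At an unadjusted p under 0.05 there were 6 of 100 members, 4 higher and 2 lower in exposed animals, beside 5.46% of all sets (1695). Values of the 2 groups did not overlap for 0 members, beside 0.892% of all sets. Exposed animals had the higher mean for 52 members and the lower for 48, with a median difference of 0.037, against 0.0044 over all sets, of which 52.0% were higher.

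The members' errors were wide, as the rule selects genes that spread between animals. For 19 members, 1 of the 2 levels held animals of a single group. The median standard error was 0.36 for members and 0.080 for all sets (5 animals per group), and the median absolute difference was 0.25 and 0.062. The median 95% interval, before adjustment, reached 0.79 to either side of the difference. This width is not a detection limit after adjustment, where even the difference of 1.42 for Pnpla3 was not called. Moderate changes in a typical member could therefore be missed.

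Pnpla3 had the largest difference, with a mean of 5.40 ± 0.63 (SD, n = 5) in controls and 6.82 ± 1.30 (SD, n = 5) in exposed animals. Its limma difference was 1.42 ± 0.52 (SE), with an adjusted p of 0.879. It read 5.34, 5.91, 5.99, 5.32 and 4.42 in control animals 1 to 5 and 8.70, 6.33, 6.88, 5.11 and 7.06 in exposed animals 1 to 5, and exposed animal 1 at 8.70 was the highest while exposed animal 4 at 5.11 lay among the controls. Without exposed animal 1 the difference was 0.95. Kcnj15 differed by 1.20 ± 0.49 and by 0.68 without exposed animal 3. Rnf213 was lower in exposed animals by -0.85 ± 0.29, with all 5 at 5.03 or less and control animals 3 and 5 among them at 4.77 and 4.92. Mtmr7, a phosphoinositide phosphatase, differed by 0.80 ± 0.31 and Clca2 by 0.77 ± 0.35. The Clca2 difference was 0.51 without exposed animal 4. Rcan2 differed by -0.63 ± 0.25 on 1389066_at. Its second member set, 1374235_at, differed by -0.30 ± 0.22, with an adjusted p of 0.897 in limma. Apart from that set, each of these had an adjusted p of 0.879 in limma and overlapping groups.

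Each of the marker and pathway lists named here gave 0 genes past the limma threshold. The 7 macrophage markers, a list without members, were all higher on average in exposed animals, with a median difference of 0.20. These markers moved together between animals, so the 7 do not count as separate observations. The rats with a low level of this list were control animals 4 and 5, at -0.34 and -0.88, and exposed animal 3, at -0.54. The immediate early list had 11 of 15 genes higher, with a median of 0.091, and the core clock list 9 of 16, with 0.080. The feeding list had 11 of 19 higher, with 0.095, and 3 genes at an unadjusted p under 0.05. Interferon-stimulated genes were higher for 14 of 15, with a median difference of 0.26, and 8 of them had an unadjusted p under 0.05. The erythroid list had 4 of 5 higher, with 0.14, and the lymphocyte and plasma cell list 8 of 9, with 0.14. Acute phase genes were higher for 3 of 13, with a median of -0.072, and the unfolded protein response list for 4 of 12, with -0.023. Over all probe sets the median difference was 0.0044, 52.0% were higher in exposed animals, and 5.46% had an unadjusted limma p under 0.05. Genes of a list can move together between animals and are not replicates of the exposure. The lists here include genes that the rule had set aside, as only 15 of 17 interferon-stimulated sets were open to it.

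**Figure D5:**
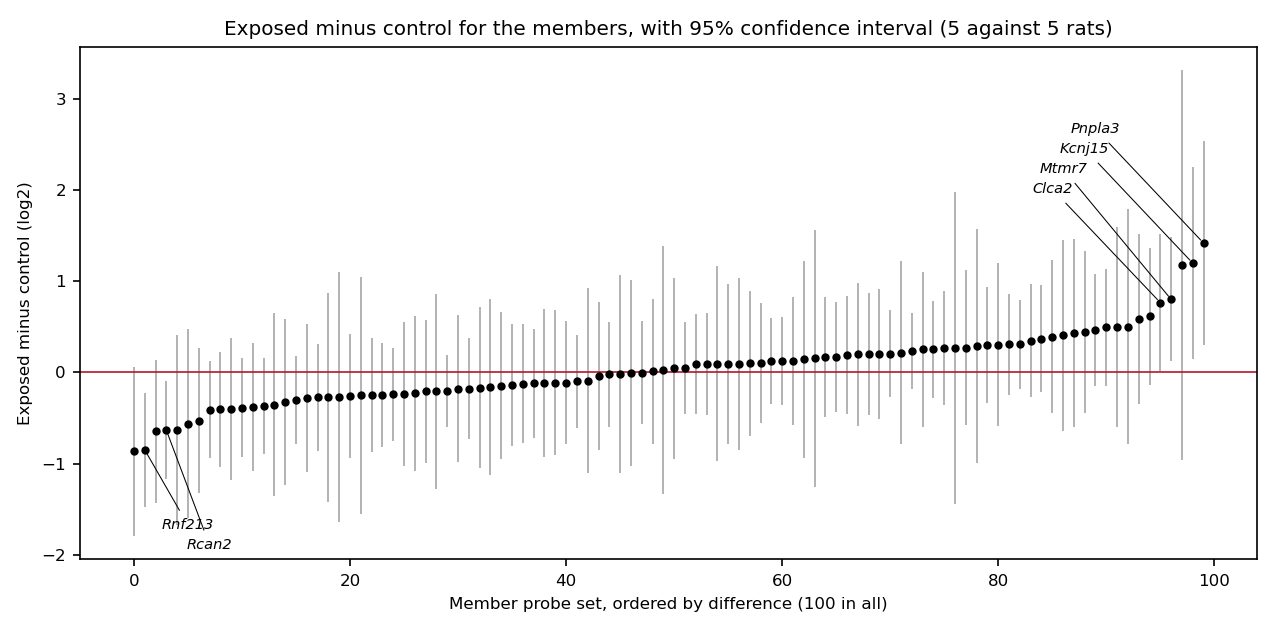
Exposed minus control difference (log2) of each of the 100 members with its 95% confidence interval from limma (5 against 5 rats), ordered by size. The 6 named members have intervals that leave out 0 before adjustment, and the differences run from -0.87 to 1.42 with 52 above 0.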

How the data were processed

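Liver RNA of 10 rats was measured on Affymetrix 3' arrays. The deposited values are log2 expression per probe set, for which the submitters' processing notes name RMA and R 2.8.1. RMA normalizes arrays before values are formed, so shifts shared by most genes are removed. The number of arrays limits the precision, and the authors' annotation version is not given in the sources used here. Of 31099 probe sets, 57 array controls were left out. Names came from the platform annotation: 20826 sets name 1 gene, 436 several and 9780 none here. Of these, 20758 were found by Entrez number in a RefSeq table for GRCr8, which gave gene order, and 0 symbols changed.

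Members and their splits are descriptive. Another set separates the animals when every animal above the member's gap reads higher than every animal below it, and the background applies the same splits to all single-symbol sets. Exposed and control animals were compared with limma 3.58.1 in R 4.3.3 (lmFit, eBayes, two-sided, Benjamini-Hochberg over 31042 sets), tested on simulated data. Alternatives covered a filter on low values, quantile normalization, a replicate block, array weights, a trended robust prior, other gap rules and leaving out each animal. List levels use each gene's brightest set. Members, lists and rules were chosen with earlier results of these data known. The naming rule took the 12 largest gaps, members followed by another set, up to 8 not followed, list members, members of the most shared splits, the 5 smallest p and sets next to the limit. It gave 60 sets of 53 genes, and other genes were chosen after their values were seen.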

Additional observations from a re-analysis of the deposited data

Results flagged for a closer look

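Within the groups of 5 animals, 14 of 120 tests on 60 named members found 1 rat apart from the other 4 by Dixon's criterion. Chance flags about 1 in 20 groups, and the members were chosen for gaps between animals. Exposed animal 3 was the lowest of its group for 5 genes with the macrophage-marker splits: Clec4a3 at 5.95 (others 6.89 to 7.20), Sparcl1 at 6.39 (7.21 to 7.54), Cfp at 7.23 (8.12 to 8.33), Anxa3 at 8.54 (9.44 to 9.61) and Ms4a6a at 6.61 (7.53 to 7.60). Exposed animal 4 was low for Abhd3 at 3.81 (others 7.19 to 7.53) and high for Edil3 at 4.04 (2.72 to 2.87). Exposed animal 2 was high for Krt10 at 7.11 (others 4.38 to 5.05) and for Jchain at 8.15 (6.50 to 6.66), and low for Rtn4ip1 at 6.25 (7.22 to 7.41). Exposed animal 5 was low for Spink1 at 6.62 (others 7.20 to 7.32). Among controls, animal 4 was low for Igfbp1 at 8.35 (others 9.85 to 9.99), animal 1 low for Prcp at 6.22 (7.05 to 7.35) and animal 2 low for Kcnj15 at 4.11 (5.26 to 5.59).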

How the results depend on the processing

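Membership depended on the gap rule: 59 of the 100 members stayed when 3 animals were needed on each side, and 58 when the gap was divided by the range. A filter on low values kept 85, quantile normalization 91, and leaving out 1 animal kept 76 (without control animal 4) to 93. Other sets that separated the animals numbered 17 to 20 under the other settings and 19 to 22 without 1 animal, against 19. The limma comparison called 0 members under every alternative run, with 1 to 11 members at an unadjusted p under 0.05. Over all probe sets it called 0 to 1 without 1 animal, the 1 set, not a member, being called without exposed animal 1. The labels number animals 1 to 5 in both groups and do not say whether the numbers pair animals. Same-numbered animals had correlations of deviations from -0.070 to 0.094, which cannot settle whether they were pairs. The main fit used no block. With the replicate block 0 sets were called and 9 members had an unadjusted p under 0.05, against 6. With 5 animals per group and a minimum of 2 per side, a level carried by 1 rat is not seen, and 56 genes have a single set.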

Other observations

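Several members that share no list followed other splits together. Igfbp1 and Golt1a, a protein of vesicle transport, were low in control animal 4 and exposed animal 5. Foxa2 and Rgs3, a regulator of G-protein signalling, shared the 6 high animals control 1, 3 and 5 and exposed 2, 4 and 5. Zswim1, Hhex and Mpzl2 were high in control animal 3 and exposed animal 2, where Zswim1 read 7.51 in both rats against at most 6.68. Trio and Ston2, an endocytic adaptor, were low in control animal 3 and exposed animal 4. Mrpl50, a mitochondrial ribosomal protein, had its next gene Zfp189 on chromosome 5 high in the same 6 rats by a margin of 0.13, while the other Mrpl50 set overlapped by 0.11. These pairs were picked after their values were seen and are given as values only.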
